A study of Mus musculus with 2 samples.

Results

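The 9 genes described here are the 2 receptors that bind corticosterone, Nr3c1 and Nr3c2, the steroid enzyme Hsd11b1, the receptor cochaperone Fkbp5, and 5 genes known or used as targets of the receptors, Sgk1, Tsc22d3, Plin4, Zbtb16 and Sult1a1. They were chosen by symbol, with earlier results of these data known, and all 9 were found among the 19059 genes of the probe panel. They were followed in single-cell RNA-seq of hippocampus from aged C57BL/6 wild-type mice, with 1 control library and 1 tomatidine library, each pooled from the hippocampi of 4 animals. Control mice ate standard chow. Treated mice ate chow with 0.05% tomatidine, a steroidal alkaloid from plants, for 3 months from the age of 21 months. The study used mice of both sexes. A UMI of a Y-linked gene was found in 69.7% of control and 70.5% of tomatidine cells, and the animals within a pool were not told apart. Cells were fixed and each transcript was counted through gene-specific probes carrying a unique molecular identifier (UMI).

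Corticosterone, the main glucocorticoid of mice, enters the brain freely and is bound inside cells by the mineralocorticoid receptor (gene Nr3c2), which has the higher affinity, and by the glucocorticoid receptor (gene Nr3c1), which fills when the hormone is high. The unbound receptors are held by Hsp90 and its cochaperones, move to the nucleus with the hormone, and raise genes such as Fkbp5, Sgk1 and Tsc22d3. The hippocampus is known for holding both receptors, with the mineralocorticoid receptor strongest in its principal neurons.

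The control library held 15912 cells and the tomatidine library 15185, and 15115 and 14502 were kept, with a median of 7066 and 7407 UMIs per cell. The libraries shared 292 cell barcodes, under 2% of either. Clustering gave 35 clusters, of which 27 could be named from marker genes as 17 cell classes. Levels are given as counts of a gene scaled to all UMIs of the class in a library (CPM), with 95% intervals that cover counting error only. Levels were compared between classes in 13 classes with at least 250 cells in each library, and between libraries in 12 of them, since the clusters of the thalamic or other subcortical class differed in share by up to 41.0 percentage points. With 1 library per group no difference between libraries has a replicate check, and tomatidine cannot be told apart from any other difference between the 2 pools. In a summed class, fewer expressing cells and less RNA per cell cannot be told apart. RNA from other cells was present: Ttr, the leading choroid plexus transcript, stood at 419 CPM in control oligodendrocytes and 62.2 with tomatidine, and the control library held 360 choroid plexus cells against 33 with tomatidine. The endothelial class was 1 cluster, in which 9 endothelial and 11 mural cell markers were raised. Its levels therefore cannot be read as those of endothelial cells alone.

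Among the 9 genes, Sgk1 and Plin4 in oligodendrocytes held the clearest differences between libraries, while both receptors were at nearly the same level in that class. Of 108 pairs of a gene and a class, 100 had at least 100 UMIs over both libraries and were read. Of these 100 pairs, 16 were lower with tomatidine by at least 0.3 on the log2 scale, against 5.04% of all gene and class pairs. A further 10 were higher by as much, against 9.39% of all pairs. Sgk1 gave 7 of the 16 lower pairs and Plin4 gave 4, and Nr3c1, Fkbp5, Tsc22d3, Hsd11b1 and Sult1a1 gave 1 each. Hsd11b1 gave 4 of the 10 higher pairs. Nr3c2 had no pair past the fold in either direction. Of the 8 pairs not read, 7 were of Sult1a1 and the other was Plin4 in CA3 neurons.

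**Figure D1:**
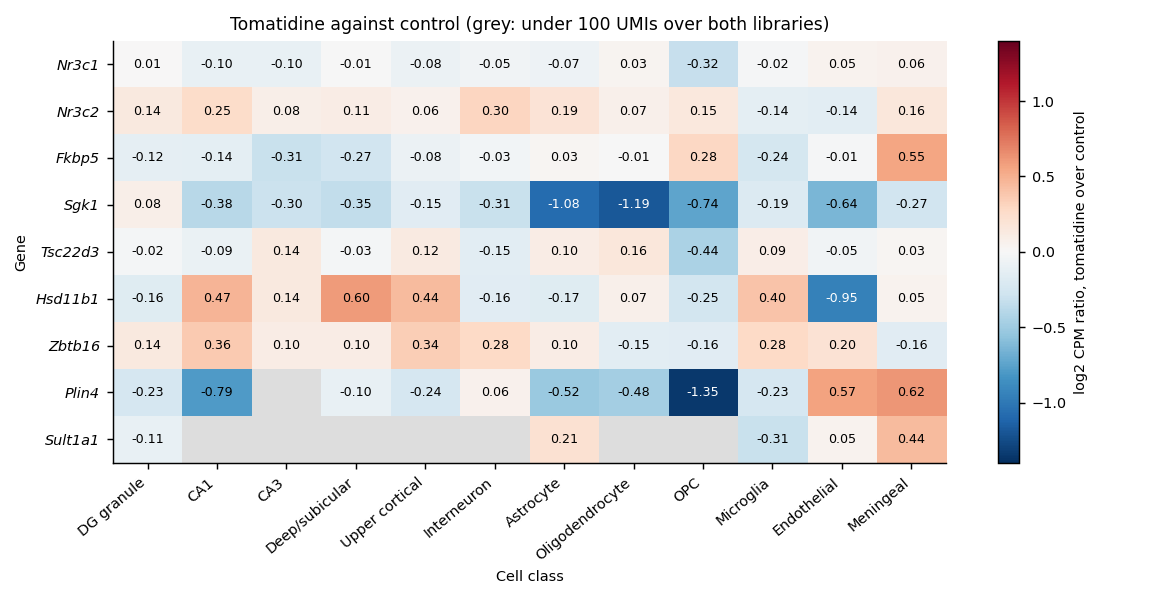
The log2 ratio of CPM, tomatidine over control, is shown for each of the 9 genes (rows) in each of 12 cell classes (columns), blue where lower and red where higher, and grey where a pair had under 100 UMIs. Sgk1 was below 0 in 11 of 12 classes and lowest in oligodendrocytes (-1.19), whereas Nr3c1 lay between -0.32 and 0.06.

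The glucocorticoid receptor gene Nr3c1 (chromosome 18, 39410545 to 39519421, minus strand, GRCm38) was highest in the endothelial class, at 168 CPM in control and 174 with tomatidine, and in oligodendrocytes, at 169 and 173. It was lowest in CA3 pyramidal neurons, at 31.8 and 29.7 CPM, below interneurons at 48.6 and 46.9 beyond the counting intervals in both libraries. CA1 neurons held more than CA3 neurons, at 105 and 98.2 CPM. The 5 highest classes (endothelial, oligodendrocyte, oligodendrocyte precursor, microglia and deep-layer or subicular neurons) were not separated from their neighbours in both libraries, although with tomatidine oligodendrocytes (166 to 180) lay above oligodendrocyte precursors (112 to 142). The last of them stood above the sixth in both libraries.

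Between libraries Nr3c1 passed the fold in 1 of 12 classes. In oligodendrocyte precursors it was at 158 CPM in control and 127 with tomatidine, a log2 ratio of -0.32 (95% interval -0.54 to -0.10). In dentate granule neurons the values were 74.7 and 75.2 CPM, a log2 ratio of 0.01 (-0.06 to 0.08), and the counting interval there did not reach the fold in either direction.

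The mineralocorticoid receptor gene Nr3c2 (chromosome 8, 76899442 to 77245012, plus strand) showed another order. CA1 neurons held 286 CPM in control and 341 with tomatidine, dentate granule neurons 282 and 310, and CA3 neurons 264 and 279. CA1 and dentate granule neurons were not separated in both libraries, whereas CA3 stood apart from the next class, meningeal or fibroblast cells, at 155 and 172 CPM. Neurons of the deep cortical layers or subiculum had the lowest level, 37.3 and 40.2 CPM. Nr3c2 was higher with tomatidine in 10 of 12 classes, with log2 ratios from -0.14 to 0.30, and in CA1 neurons by 0.25 (0.19 to 0.31). The median over all genes read was itself above 0 in most classes, at 0.06 in CA1 neurons. The highest Nr3c2 value, 0.295 in interneurons, was just under the fold. It was uneven over the interneuron clusters, at 0.56 (0.36 to 0.76) in the cluster led by Sst and 0.01 (-0.16 to 0.19) in the cluster led by Vip.

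The balance of the receptors, as UMIs of Nr3c2 per UMI of Nr3c1, can be compared between classes but not read as a ratio of molecules, since the probes differ. It was highest in CA3 neurons, at 8.28 in control (7.23 to 9.51) and 9.42 with tomatidine (8.12 to 10.98). Dentate granule neurons followed with 3.77 and 4.12, and CA1 neurons with 2.71 and 3.47. Oligodendrocytes, at 0.32 and 0.33, and deep-layer or subicular neurons, at 0.28 and 0.31, had the lowest values. The hippocampal principal neurons therefore stood at the mineralocorticoid end and oligodendrocytes at the glucocorticoid end in both libraries.

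**Figure D2:**
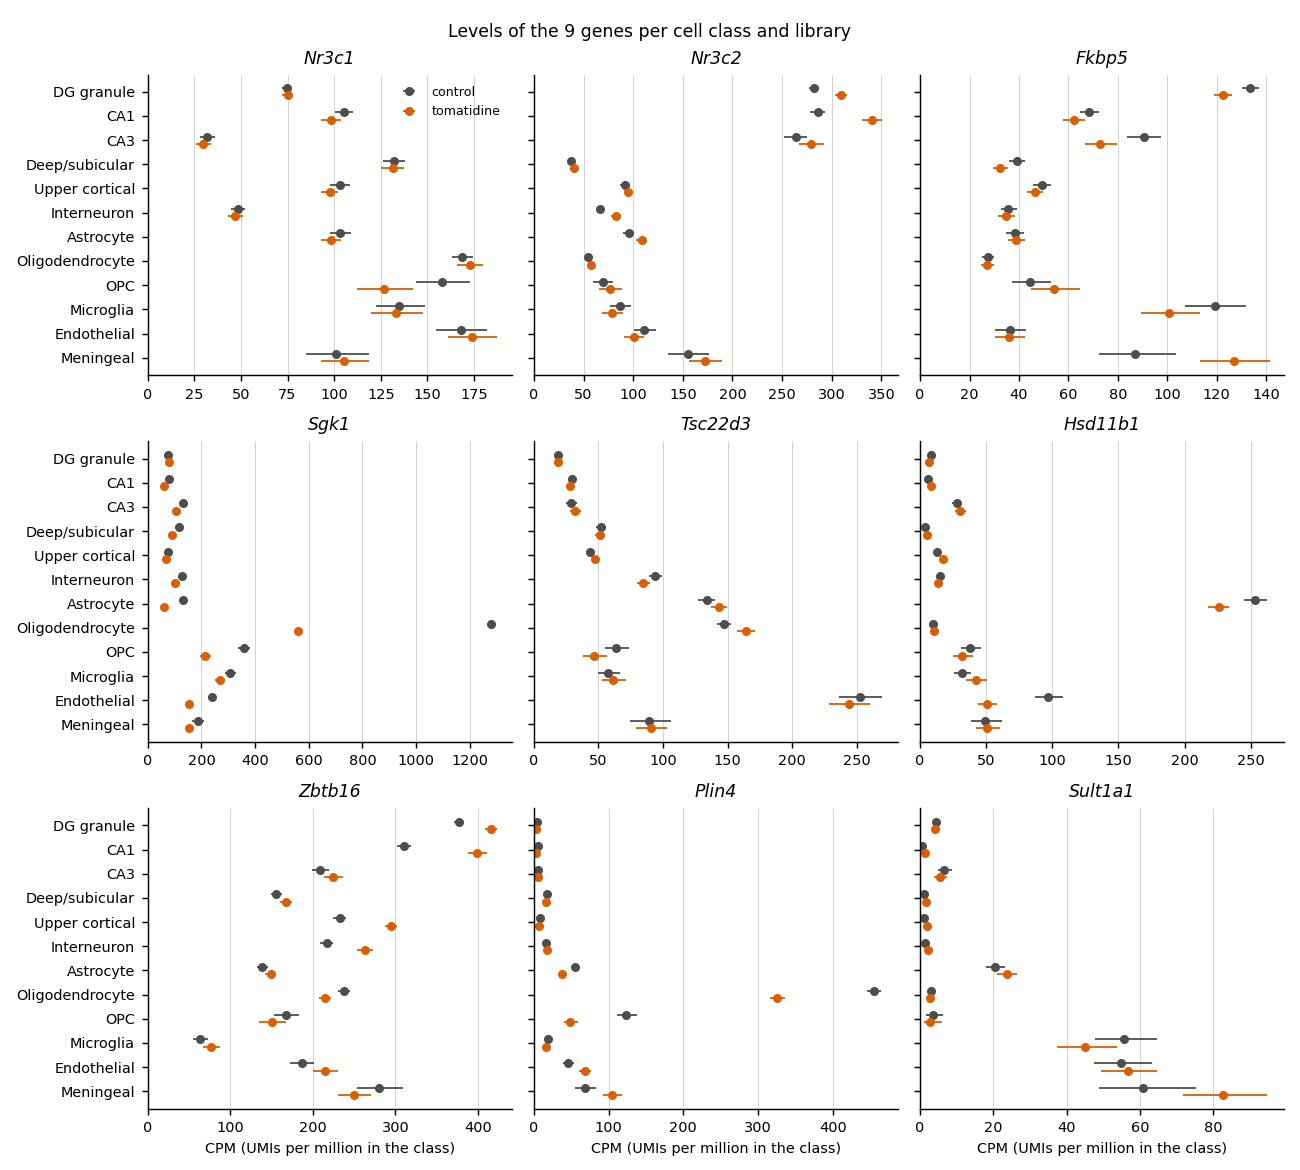
CPM of each gene (x axis, linear from 0, a scale of its own per panel) is plotted in 12 cell classes (y axis) for the control library (grey) and the tomatidine library (orange), with bars for the 95% counting interval. Nr3c2 and Zbtb16 were highest in CA1 and dentate granule neurons, Hsd11b1 in astrocytes, and Sgk1 and Plin4 in oligodendrocytes, where control and tomatidine stand apart.

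Hsd11b1 (chromosome 1, 193221634 to 193264075, minus strand) encodes the enzyme that regenerates active corticosterone from its inert keto form inside cells. It was mainly an astrocyte gene here, at 253 CPM in control astrocytes (3106 UMIs) and 226 with tomatidine (3090 UMIs), a log2 ratio of -0.17 (-0.24 to -0.09). Within astrocytes it was uneven. One cluster, led by Cyp4f15 and Mfge8, held 593 and 510 CPM, and the largest cluster, led by Fam107a and Aldoc, held 143 and 126. In neurons Hsd11b1 was low, though CA3 neurons, at 27.7 and 30.4 CPM, stood above CA1 neurons at 5.87 and 8.14.

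In the endothelial class Hsd11b1 was lower with tomatidine, at 97.0 CPM in control and 50.3 with tomatidine, a log2 ratio of -0.95 (-1.21 to -0.69). The 10 astrocyte markers were also lower in that class, summing to 7716 CPM in control and 5638 with tomatidine, or 32.0% and 23.0% of their level in astrocytes, and their part in the result was not tested. Scaled by these shares, astrocyte RNA would carry 81.2 and 51.9 CPM of Hsd11b1, near the measured values. In CA1, deep-layer or subicular and upper-layer cortical neurons Hsd11b1 was higher with tomatidine, by 0.47, 0.60 and 0.44, but all of these levels were under 18 CPM. In microglia it was at 31.8 and 42.0 CPM (0.40, 0.00 to 0.80), beside scaled levels of 36.9 and 38.3. In the deep-layer class both libraries were below the level scaled from astrocyte markers, 17.9 and 16.9 CPM.

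Of the other genes of steroid metabolism, H6pd, which supplies the cofactor of Hsd11b1, was read in 12 classes and was higher past the fold in 4 and lower in 1. Srd5a1, a steroid reductase, was lower in 2 of 6 classes. Over all gene and class pairs 9.39% were higher and 5.04% lower. In oligodendrocytes neither passed the fold, with log2 ratios of 0.21 for H6pd and 0.15 for Srd5a1.

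Fkbp5 (chromosome 17, 28399094 to 28517527, minus strand), a cochaperone that lowers the receptor's affinity for its hormone and is itself raised by it, was highest in dentate granule neurons, microglia and meningeal cells. Dentate granule neurons held 134 CPM in control (6217 UMIs) and 123 with tomatidine (4189 UMIs), a log2 ratio of -0.12 (-0.18 to -0.07). In CA3 neurons it was at 90.5 and 73.0 CPM, -0.31 (-0.48 to -0.14). In meningeal or fibroblast cells it was higher with tomatidine, at 86.8 and 127 CPM, 0.55 (0.24 to 0.86). Oligodendrocytes had the lowest level, 27.4 and 27.2 CPM, with a log2 ratio of -0.01 (-0.20 to 0.18).

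Of the chaperones that hold the receptors, 4 of 120 pairs of a gene and a class were lower past the fold, where 5.04% of all pairs were, and 1 was higher, where 9.39% were. In oligodendrocytes 0 of 10 passed it, and the list ran from Fkbp4 at -0.21 to Bag1 at 0.06. Of the receptor coregulators 0 of 96 pairs passed the fold in either direction, beside the same shares of all pairs (5.04% lower and 9.39% higher), and in oligodendrocytes they lay between Ncoa1 at -0.21 and Ncoa3 at 0.04.

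Sgk1 (chromosome 10, 21882184 to 21999903, plus strand) encodes a serine/threonine kinase that acts on ion transport and cell survival. It has 6 start sites in the RefSeq promoter table, and 1 of them holds the palindrome to which the receptors bind. The motif searched was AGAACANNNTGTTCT, which reads the same on both strands, and it was in 3 of 32851 promoters of 300 bases (250 before the start and 50 after). The promoter with the match is shown because Sgk1 carries the largest difference in oligodendrocytes. It lies at chr10:21993640-21993939 on the plus strand of GRCm38.p6, and the match begins 189 bases before the start, in capitals.
Sgk1: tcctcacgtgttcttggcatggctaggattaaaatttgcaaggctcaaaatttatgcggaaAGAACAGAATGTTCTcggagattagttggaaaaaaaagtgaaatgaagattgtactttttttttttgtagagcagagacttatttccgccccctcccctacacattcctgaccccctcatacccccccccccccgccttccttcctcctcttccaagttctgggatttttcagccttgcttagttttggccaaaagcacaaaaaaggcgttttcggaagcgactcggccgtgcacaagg

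A single arm of the palindrome, AGAACA or TGTTCT, was common, in 19.0% of all promoters, and was found in 5 of the 14 promoters given for 7 of the 9 genes. Those were 3 of Sgk1, 1 of Tsc22d3 and 1 of Sult1a1. A match is a description of letters and not evidence that the receptors bind there.

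Oligodendrocytes, the myelin-forming glia, held far more Sgk1 than any other class. In control they had 24329 UMIs, or 1279 CPM, and with tomatidine 7842 UMIs, or 562 CPM. The log2 ratio was -1.19 (-1.22 to -1.15), which placed Sgk1 26th from the lowest of 11183 genes read in the class. The difference was seen in both oligodendrocyte clusters. The cluster led by Klk6 and Enpp6 had 1329 CPM in control and 557 with tomatidine, and the cluster led by Sec14l5 and Hapln2 had 1187 and 571. Myelin genes that define the class were not lower in the same way, with Mbp at 5205 and 5634 CPM and Mog at 1908 and 1956. A further cluster with Bcas1, Mobp and Mbp among its leading genes (633 and 541 cells) could not be named and was not part of the class.

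The lower level was spread over the cells. In oligodendrocytes with at least 1500 UMIs (2953 in control and 2251 with tomatidine), the median Sgk1 level per cell was 1101 CPM in control and 299.6 with tomatidine, and the 90th percentile was 2928 and 1737. With each cell thinned to 1500 UMIs, 73.1% of control cells (71.4 to 74.7) and 43.9% of tomatidine cells (41.8 to 45.9) kept at least 1 Sgk1 UMI, leaving out 58 and 69 shallower cells. Without thinning the shares were 91.2% and 67.5%, at a median of 5302 and 4844 UMIs per cell. Dentate granule neurons, a low class with a median of 14078 and 12680 UMIs, gave 11.8% and 10.9% after thinning.

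**Figure D3:**
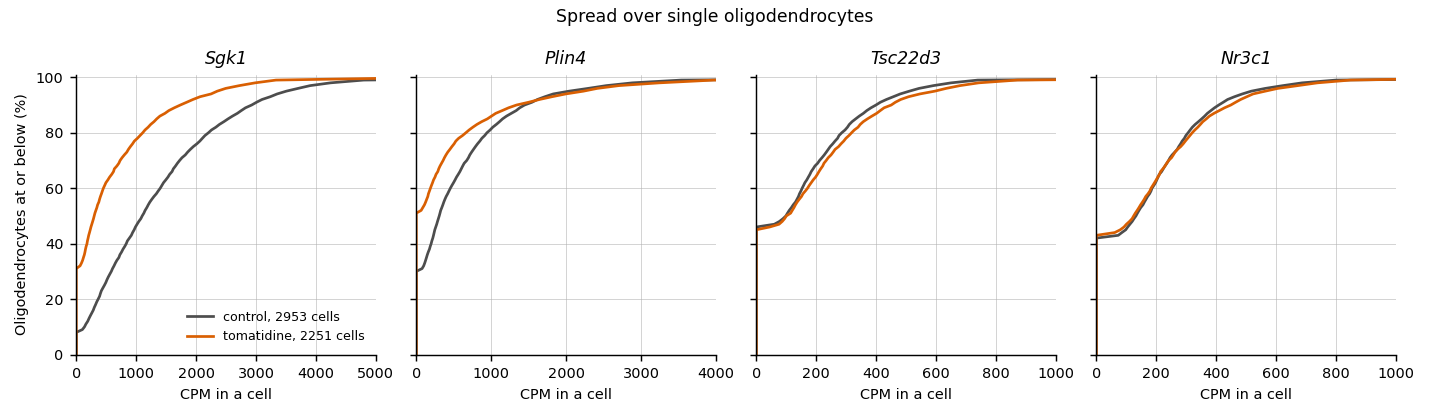
The share of oligodendrocytes at or below a given level (y axis, percent) is plotted against CPM in a cell (x axis) for Sgk1, Plin4, Tsc22d3 and Nr3c1, in 2953 control cells (grey) and 2251 tomatidine cells (orange) of at least 1500 UMIs. The Sgk1 lines are apart over nearly the whole range, the Plin4 lines meet at high levels, and the Tsc22d3 and Nr3c1 lines lie close together.

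In most other classes the measured Sgk1 level was lower too, and RNA of oligodendrocytes moved with it in some of them. In CA3, deep-layer or subicular and upper-layer cortical neurons the oligodendrocyte markers were instead higher with tomatidine. In astrocytes Sgk1 was at 132 CPM in control and 62.6 with tomatidine, a log2 ratio of -1.08 (-1.20 to -0.96), 7th from the lowest of 11652 genes. It was uneven over the astrocyte clusters. The cluster led by Myoc and Thbs4 (155 and 142 cells) held 797 of the 1623 control UMIs and had -1.45 (-1.65 to -1.25). The other astrocyte clusters lay between -0.72 and -0.64. Over the alternatives in processing the class value ran from -1.21 to -0.55. The 10 oligodendrocyte markers summed to 6890 CPM in control astrocytes and 4976 with tomatidine, or 11.5% and 8.47% of their level in oligodendrocytes. At these shares oligodendrocyte RNA would carry 147 and 47.6 CPM of Sgk1, so the control value was not above that level. In oligodendrocyte precursors Sgk1 was at 357 and 214 CPM, -0.74 (-0.90 to -0.58), and the scaled level was 303 and 74.9 CPM, which left 54.4 and 140 CPM above it.

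In other cells the measured level was well above the scaled one. Microglia held 307 CPM in control and 269 with tomatidine, against 84.4 and 33.4 scaled, which left 223 and 236. Endothelial cells held 239 and 154 CPM, -0.64 (-0.79 to -0.48), and remained lower with tomatidine after the scaled level was taken off, at 160 and 124 CPM. Choroid plexus RNA moved with that value as well, since Ttr was at 2210 and 67.5 CPM in the endothelial class. That was a small share of Ttr in choroid plexus cells, at 221487 CPM in control and 257068 with tomatidine. Choroid plexus cells held 439.7 CPM of Sgk1 in control, and the part of their RNA in the result was not tested. Interneurons held 126 and 102 CPM, and after the same step 68.9 and 81.3, which turned the direction, as did assigning cells one by one from their markers (0.025). Meningeal or fibroblast cells held 188 and 156 CPM, with 72.5 and 119 left. Upper-layer cortical neurons held 74.5 and 67.0 CPM, with 50.8 and 55.6 left, so the direction turned in these classes as well. CA3 neurons stayed lower, with 132 and 107 CPM measured and 113 and 98.1 left. CA1 neurons were lower on both counts, with 79.4 and 60.8 CPM measured and 63.6 and 54.6 CPM left. Deep-layer or subicular neurons held 115 and 90.3 CPM (-0.35), with 69.4 and 65.7 left. Their oligodendrocyte markers summed to 2128 CPM in control and 2575 with tomatidine. In dentate granule neurons Sgk1 was at 75.7 and 79.8 CPM (0.08, 0.00 to 0.15), and the clusters went opposite ways, at 0.16 (0.07 to 0.24) in the cluster led by C1ql2 and -0.14 in the cluster led by Ryr1.

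**Figure D4:**
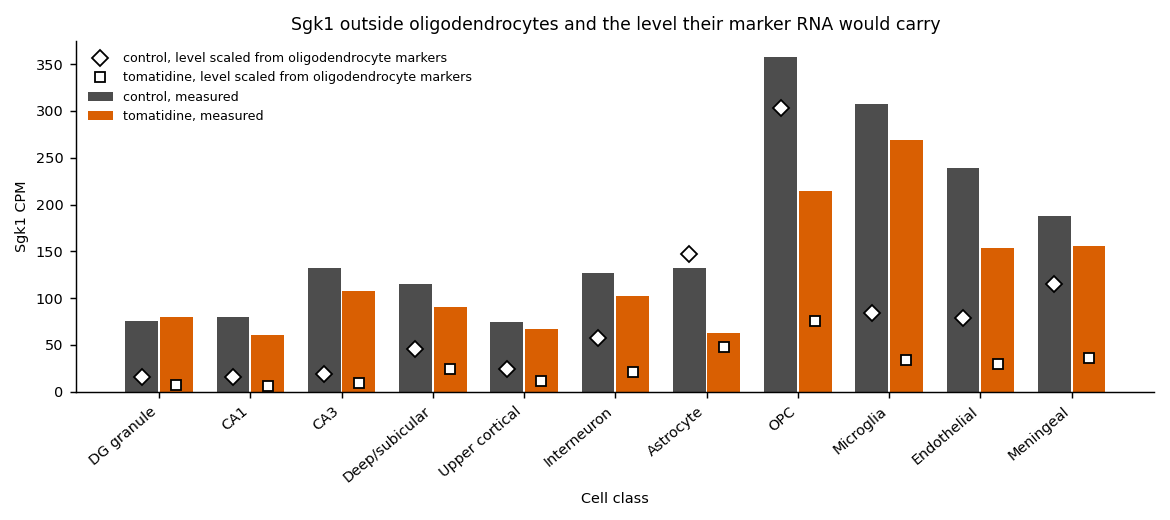
Bars give the measured Sgk1 CPM (y axis, from 0) in 11 classes other than oligodendrocytes for the control library (grey) and the tomatidine library (orange), and white symbols give the level that oligodendrocyte RNA would carry, scaled from 10 oligodendrocyte markers. In control astrocytes the symbol (147) is above the bar (132), whereas in microglia the bars (307 and 269) are far above the symbols.

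Plin4 (chromosome 17, 56100591 to 56109803, minus strand), which encodes a lipid droplet coat protein, was also highest in oligodendrocytes. They held 455 CPM in control (8651 UMIs) and 326 with tomatidine (4549 UMIs), a log2 ratio of -0.48 (-0.53 to -0.43). After thinning, 43.0% of control and 29.5% of tomatidine cells kept a Plin4 UMI, against 0.80% and 0.70% of dentate granule neurons. The median per cell was 307 CPM in control and 0 with tomatidine, but the 99th percentile was 3538 and 3976, so the lower level was not seen in the highest cells. In oligodendrocyte precursors Plin4 was at 124 and 48.7 CPM, -1.35 (-1.67 to -1.03), beside scaled oligodendrocyte levels of 108 and 43.5. In astrocytes it was at 54.7 and 38.1 CPM beside 52.3 and 27.6, which left 2.41 and 10.5 CPM and turned the direction.

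In meningeal or fibroblast cells Plin4 was higher with tomatidine, at 67.9 CPM in control and 104 with tomatidine, 0.62 (0.27 to 0.97). In endothelial cells its summed level was also higher, at 46.1 and 68.2 CPM, 0.57 (0.28 to 0.86), but a Plin4 UMI was found in 17.3% of control and 11.7% of tomatidine cells (7.04% and 5.68% after thinning). The endothelial value rested on few cells and lost the fold as a mean over cells (0.12) and with at most 6000 genes and 10% mitochondrial UMIs per cell (0.013). Summed mural cell markers were also higher in these classes, at 6642 and 8169 CPM in the endothelial class and 3876 and 5176 in the meningeal class. The mural class itself, of 38 and 39 cells, held less Plin4 with tomatidine. The part of mural RNA in the result was not tested.

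Tsc22d3 (chromosome X, 140539528 to 140600659, minus strand), which encodes the anti-inflammatory protein GILZ, was highest in the endothelial class, at 252 and 244 CPM, followed by oligodendrocytes at 147 and 164 and astrocytes at 134 and 143. These 3 classes were separated from each other in both libraries. In oligodendrocytes, where Sgk1 was lower, Tsc22d3 had a log2 ratio of 0.16 (0.08 to 0.24). It passed the fold in 1 of 12 classes, oligodendrocyte precursors, at 63.6 and 46.9 CPM (-0.44, -0.80 to -0.09), and the direction turned, to 0.29, when cells were assigned one by one from their markers.

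Zbtb16 (chromosome 9, 48654297 to 48836222, minus strand), which encodes the zinc finger repressor PLZF, was highest in dentate granule neurons, at 377 and 416 CPM, and in CA1 neurons, at 310 and 399. It was higher with tomatidine past the fold in CA1 neurons (0.36, 0.31 to 0.42) and in upper-layer cortical neurons (0.34, 0.28 to 0.40), which held 233 and 295 CPM. In oligodendrocytes it was at 238 and 215 CPM.

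Sult1a1 (chromosome 7, 126672865 to 126676432, minus strand), a phenol sulfotransferase, was low in neurons and oligodendrocytes, with 59 and 36 UMIs in all oligodendrocytes. Meningeal or fibroblast cells held 60.9 and 82.6 CPM (0.44, 0.07 to 0.82), endothelial cells 54.9 and 56.7, and microglia 55.6 and 44.9 (-0.31, -0.65 to 0.03), where the counting interval held 0. Their intervals overlapped in control, whereas with tomatidine the meningeal level (71.7 to 94.6) lay above the endothelial (49.5 to 64.7) and microglial (37.3 to 53.6) levels. Microglia stood above astrocytes, at 20.4 and 23.6 CPM.

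Read by class, the counts of the 9 genes stood as follows against all genes. In oligodendrocytes 2 of 8 read were lower, where 3.35% of all genes were, and 0 were higher, where 6.43% were. In oligodendrocyte precursors 4 of 8 were lower (all genes 8.93%) and 0 higher (11.3%). In astrocytes 2 of 9 were lower (5.41%) and 0 higher (4.77%), and in dentate granule neurons 0 of 9 were lower (1.20%) and 0 higher (5.80%). The endothelial class had 2 of 9 lower (9.55%) and 1 higher (10.4%), the meningeal class 0 of 9 lower (13.3%) and 3 higher (10.8%), and CA1 neurons 2 of 8 lower (3.55%) and 2 higher (18.3%), with a median depth of 26898 and 17848 UMIs per cell in that class. The precursor, astrocyte and CA1 counts include Sgk1 and Plin4, which moved there with oligodendrocyte markers. In CA1 neurons these markers summed to 740 CPM in control and 650 with tomatidine. Plin4 was at 4.89 and 2.82 CPM there, below its scaled oligodendrocyte levels of 5.62 and 3.61. The endothelial count includes Sgk1, beside oligodendrocyte markers at 3700 and 3140 CPM. The part of oligodendrocyte RNA in these counts was not tested.

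Other known targets of the receptors were counted in oligodendrocytes in the same way. Their list was also chosen with earlier results of these data known, so its counts are a description and not independent support. Of 20 such genes read, 7 were lower past the fold (3.35% of all genes in the class) and 1 was higher (6.43%), with a median log2 ratio of -0.17 beside 0.03 for all genes. Arl4d, a small GTPase, had 247 CPM in control and 123 with tomatidine (-0.999, -1.08 to -0.92). Nfkbia, the inhibitor of NF-kappa B, had 134 and 68.5 CPM (-0.97, -1.07 to -0.86). The others were Pdk4 (-0.59), Ddit4 (-0.50), Per1 (-0.41), Cebpd (-0.39) and Bcl6 (-0.34), and these 5 and Nfkbia were named after their values were seen.

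Not all targets followed. Klf9, Mt1 and Mt2 were also chosen after their values were seen. Klf9 was at 194 and 178 CPM (-0.12), the metallothioneins Mt1 and Mt2 were at 0.12 and 0.11 on the log2 scale, and Hif3a was higher, at 5.62 and 8.45 CPM (0.59, 0.20 to 0.98). Together with Fkbp5 and Tsc22d3, these genes show that the targets did not move one way in oligodendrocytes. Early response genes were chosen after the data were seen. Fos, Egr1, Jun and Ier2 had log2 ratios of -0.12, 0.08, 0.12 and 0.17 there, and Junb had -0.64 (-0.92 to -0.37). In deep-layer or subicular neurons all of these genes were lower, from Fos at -0.93 to Jun at -0.14. In the endothelial class they went both ways, from Jun at -0.33 to Ier2 at 0.42. Their part in the result was not tested.

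**Figure D5:**
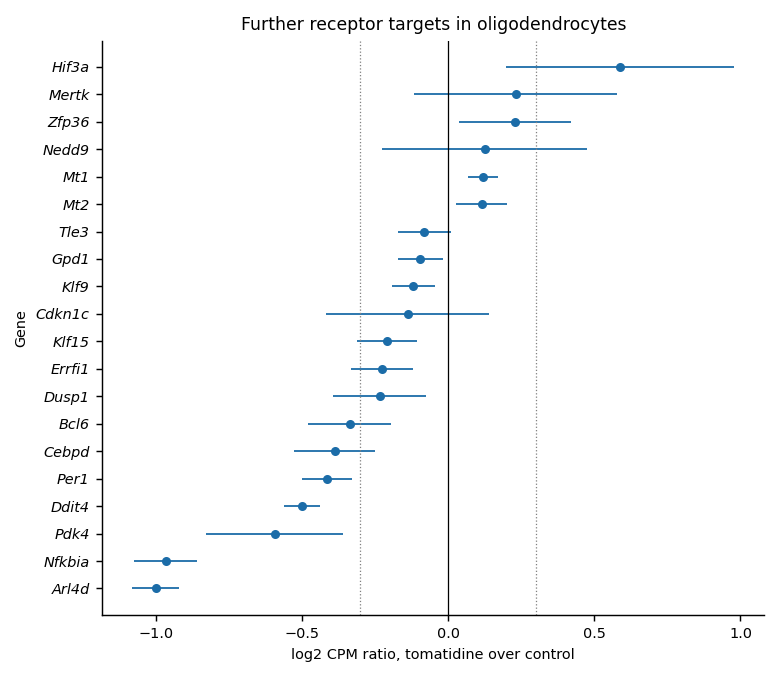
Each point is the log2 ratio of CPM in oligodendrocytes, tomatidine over control (x axis), of 1 of 20 further receptor targets (y axis), with its 95% counting interval, and dotted lines mark 0.3 in each direction. The points run from Arl4d (-0.999) to Hif3a (0.59), and 7 lie left of the lower line.

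In endothelial cells 4 of 20 further targets were lower (all genes 9.55%) and 3 were higher (10.4%), from Lcn2 at -0.99 to Cdkn1c at 0.52. In oligodendrocyte precursors 7 of 16 were lower (all genes 8.93%) and 0 higher (11.3%), from Cebpd at -0.86 to Mertk at 0.28. Oligodendrocyte markers in the precursors stood at 23.7% of their level in oligodendrocytes in control and 13.3% with tomatidine, and their part in these counts was not tested. Over the 12 classes 37 of 208 pairs of such a gene and a class were lower (all pairs 5.04%) and 24 higher (9.39%), the latter near the share of all pairs. Arl4d was lower past the fold in 8 of 11 classes read. In astrocytes it was at 29.5 CPM in control and 17.5 with tomatidine, well below its level in oligodendrocytes. No level scaled from oligodendrocyte markers was taken for Arl4d, so the part of oligodendrocyte RNA in the other classes was not tested. Lcn2 was lower in 2 of 2, Hif3a higher in 2 of 2 and Angptl4 higher in 2 of 3.

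The genes most like each of the 9 in their pattern over 13 classes and both libraries (26 points, Pearson's r of log2(CPM + 1), as a description, the points sharing 2 libraries) were led by Sgk3 for Nr3c1 (0.88), Zfp189 for Nr3c2 (0.95), Ntsr2 for Hsd11b1 (0.95), Kdm7a for Fkbp5 (0.89), Rffl for Sgk1 (0.93), Car14 for Plin4 (0.98), Flii for Tsc22d3 (0.91), Tcf4 for Zbtb16 (0.83) and Fcgrt for Sult1a1 (0.96). Next came Pik3r1 and Stam2 for Nr3c1, Sipa1l3 and Wipf3 for Nr3c2, Fam107a and Pla2g7 for Hsd11b1, and Limd2 and Catsperg1 for Fkbp5. For the others they were Slc12a2 and Tbc1d5 for Sgk1, Adamtsl4 and Carhsp1 for Plin4, Usp6nl and Rom1 for Tsc22d3, Sh3bp5 and Jph1 for Zbtb16, and Trim34a and Trim12a for Sult1a1.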

How the data were processed

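Hippocampal cells of 1 control and 1 tomatidine library were profiled by the authors with the 10x fixed RNA probe assay. The deposited values are whole-number UMI counts per gene and cell, not normalized. The submitters' processing notes name Cell Ranger 8.0.0 with mm10 and the matrix headers 7.1.0. Following the study's methods, cells entered with 500 or more UMIs, over 250 genes, under 20% mitochondrial UMIs and a complexity over 0.8 (the log10 of genes divided by that of UMIs). The study removed doublets with DoubletFinder. Here Scrublet (scanpy 1.11.5) marked 0 control and 1 tomatidine cell by default, and instead the top 2% of scores in each library (308 and 296 cells) were taken out. Cells were integrated by RPCA and clustered by Louvain at resolution 0.8 (Seurat 5.3.0, R 4.3.3, 2000 variable genes, 30 components) with the 9 genes and the listed genes kept out of the variable genes. Clusters were named by the class leading in markers within the top 10 genes, or otherwise with the most markers raised at least 2-fold and found in at least 10% of its cells, with 3 or more needed. These rules were set after the clusters were seen, and 8 clusters stayed unnamed.

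UMIs were summed per class and library and divided by the class total (CPM). Intervals are exact (Poisson for levels, conditional binomial for ratios, binomial for shares). A gene was read with at least 100 UMIs and called past the fold at an absolute log2 ratio of at least 0.3. The groups were not tested against each other, for want of replicate libraries. Alternatives changed the resolution, integration, doublet and cell filters, class assignment (a marker gate, in which each cell took the class with the most markers detected, at least 5), scaling (TMM, edgeR 4.0.16), fold and UMI minimum. The statistics were tested on simulated counts. The level scaled from another class is that class's CPM times the ratio of its summed marker CPM. Coordinates are from GENCODE vM21 (mm10) and promoters from RefSeq. The members and lists (receptors, steroid metabolism, chaperones, coregulators and further targets) were chosen with earlier results of these data known. The text names all 9 genes, the highest and lowest gene of each list in the classes described, genes past the fold one way in most classes, and the 3 most similar in pattern to each member.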

Additional observations from a re-analysis of the deposited data

Results flagged for a closer look

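A few of the genes were past the fold in opposite directions in 2 cell classes, with counting intervals that left out 0 at both ends. Fkbp5 had a log2 ratio of -0.31 in CA3 neurons and 0.55 in meningeal or fibroblast cells, and both lost the fold when cells were assigned one by one from their markers (-0.24 and 0.17). Hsd11b1 had -0.95 in endothelial cells and 0.60 in deep-layer or subicular neurons, where its level was under 6 CPM in both libraries. The level scaled from astrocyte markers was 81.2 and 51.9 CPM in endothelial cells, beside 97.0 and 50.3 measured, and 17.9 and 16.9 CPM in deep-layer or subicular neurons, above the 3.61 and 5.47 measured. Plin4 had -1.35 in oligodendrocyte precursors and 0.62 in meningeal or fibroblast cells. The difference between the classes was not tested, since each class has 1 library per group.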

How the results depend on the processing

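Of 26 pairs past the fold, 24 kept their direction under every alternative that gave a value, apart from the marker-scaled one below, and 11 also stayed past the fold. The value nearest 0 of each of the others was -0.23 for Nr3c1 in oligodendrocyte precursors, -0.24 and 0.17 for Fkbp5 in CA3 and meningeal cells, -0.27 and -0.299 for Sgk1 in CA1 and deep-layer neurons, 0.091, 0.13 and 0.037 for Hsd11b1 in CA1, microglia and upper-layer neurons, 0.25 and 0.24 for Zbtb16 in CA1 and upper-layer neurons, -0.24 and 0.013 for Plin4 in CA1 and endothelial cells, and -0.24 for Sult1a1 in microglia. With the marker gate, Sgk1 in interneurons went to 0.025 and Tsc22d3 in oligodendrocyte precursors to 0.29. Sgk1 in oligodendrocytes ran from -1.27 (marker gate) to -1.14 (mean over cells). Plin4 there was -0.76 with the marker gate, -0.36 as a mean over cells and -0.54 in cells with a Y-linked UMI. Hsd11b1 in astrocytes was -0.24 without integration, -0.25 without doublet removal, -0.44 with the marker gate and -0.029 as a mean over cells. Nr3c2 in CA1 neurons was 0.11 at resolution 1.5, 0.32 with the stricter cell limits of the study's QC section (at most 6000 genes and 10% mitochondrial UMIs), 0.15 with the marker gate and 0.18 with TMM factors. Zbtb16 in dentate granule neurons was 0.11 with TMM factors. Nr3c1 in endothelial cells was 0.24 with the marker gate. Sult1a1 in meningeal cells was 0.98 with those cell limits and 0.90 as a mean over cells. At a fold of 0.5 the lower pairs were 8, the higher pairs 4, and the lower further targets in oligodendrocytes 3. Higher further targets were 2 and not 1 without doublet removal, in cells with a Y-linked UMI, with the same cluster mix in both libraries, and with at least 20 UMIs. Levels depended on the processing too. Over 8 alternatives, Sgk1 in oligodendrocytes ran from 706 to 1336 CPM in control and from 293 to 606 with tomatidine. Plin4 in oligodendrocytes ran from 234 to 560 and from 138 to 437 CPM, and Hsd11b1 in astrocytes from 144 to 330 and from 106 to 305 CPM.

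After taking off the scaled level of the other class, an alternative chosen after seeing the data, Sgk1 went to 0.24 in interneurons and 1.36 in oligodendrocyte precursors, and Plin4 to 2.12 in astrocytes. For Hsd11b1 in endothelial cells it left 15.8 CPM in control and -1.64 with tomatidine, so no ratio was taken. Apart from the fold of 0.5 and the 20 UMI minimum, the cause of these shifts was not tested. No paired analysis was possible because each group has 1 library. Genes under 100 UMIs in a class could not be read at this depth.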
